A study of Canis lupus familiaris with 28 samples.

Results

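The genes described are 9 grouped under mitotic entry and exit: *CDC25C*, *GTSE1*, *KIF20A*, *KIFC1*, *CENPM*, *FBXO5*, *CDC23*, *CDC14B* and *MTFR2*. They were chosen by name, with their differences between tumors and controls and between cell lines and dendritic cells already known, from the 32704 gene identifiers counted in canine histiocytic sarcoma (HS). Each name was paired with 1 Ensembl identifier, and all 9 passed the filter on low counts in each of the 4 comparisons below. Because the first 2 of these comparisons were used in choosing them, their levels there are a description and no p is given for any of the 9. Where they pass the cutoffs of the fit over all genes this is stated beside the share of all genes that do, and nothing is read from it.

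HS is a malignancy of macrophage and dendritic cell lineages to which Bernese Mountain Dogs (BMDs) are prone. RNA was sequenced from 18 BMD tumors, 15 labelled HS and 3 labelled hemophagocytic HS (HHS), the form in which tumor cells engulf blood cells. The 6 controls were the blood of 3 BMDs and 1 sample each of liver, lung and spleen from German Shepherd Dogs, and none of these dogs had HS. The cell libraries were the HS lines BD and OD, from BMDs, and PJ, from a Rottweiler, beside DC3F9, dendritic cells that were grown from the blood monocytes of a mongrel dog with GM-CSF and IL-4. The tumors were taken from the lung (6), liver (4), spleen (2), thorax (2) and 1 each of a thoracic mass, a leg mass, a shoulder and a lymph node, with 1 HHS tumor in the lung, 1 in the liver and 1 in the lymph node. No treatment of the dogs was used as a group, each cell line was sequenced once, and DC3F9 was the only normal cell library.

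Entry into mitosis is driven by the kinase CDK1 with cyclin B, which is held off by an inhibitory phosphate until a phosphatase of the CDC25 family removes it. Chromosomes are then moved by kinesins on a microtubule spindle that attaches at the kinetochore. Exit follows when the anaphase-promoting complex (APC/C) marks cyclin B for destruction and phosphatases reverse the work of CDK1, and most genes of this program are transcribed only in dividing cells.

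Levels are given as CPM, a gene's reads as a share of all reads counted on genes in that library. Gene length was not taken into account, so CPM is compared between samples for 1 gene and never between genes. Each tumor had between 99701394 and 171815073 reads counted on genes, each control between 133524755 and 180801439, and each cell library between 82007857 and 131518875. The 9 genes had 33 to 25543 reads in any library. All 18 tumors and the spleen, lung and liver controls were sequenced on 1 flow cell and the blood controls on another, so among controls the flow cell, the breed and the tissue cannot be told apart. The liver control was left out of the comparison, as the study did. Its scaling factor by the TMM method was 0.342, against 0.777 to 1.28 in the tumors. The 4 genes taken as histiocyte markers, *CSF2RB*, *LYZ*, *CD63* and *NCF4*, summed to 1185 to 10028 CPM in tumors. Their sum was 9130 to 12948 CPM in blood, 1482 CPM in spleen and 807 CPM in lung. It was 909 to 1387 CPM in the lines and 1723 CPM in DC3F9. Blood was thus above most tumors, so the sum is not particular to histiocytes. Markers of T, B and NK cells (5 genes) summed to 575 to 945 CPM in blood, 214 CPM in spleen, 25.1 CPM in lung and 14.9 to 221 CPM in tumors, with none of the 5 at 0 throughout. Markers of red cells and platelets (3 genes) reached 44.9 CPM in the spleen tumor HS51 and at most 2.41 CPM in the other tumors. Hepatocyte markers (5 genes) reached 109 CPM in HS4 and 95.4 CPM in the liver tumor HS33 and at most 9.87 CPM in the others, stroma markers (5 genes) were 20.4 to 865 CPM in tumors and 0.222 to 2.07 CPM in blood, and endothelial markers (3 genes) were 3.97 to 126 CPM in tumors and 4.66 to 559 CPM in the 5 controls. In such bulk samples fewer dividing cells and less RNA per dividing cell cannot be told apart.

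*CDC25C* encodes the phosphatase that activates CDK1 at mitotic entry. Its level was 3.54 CPM in the lowest tumor, HS27, 6.14 CPM at the median and 15.8 CPM in the highest, HS37. In blood it was 0.51, 1.12 and 1.24 CPM, in the lung control 1.12 CPM and in the spleen control 2.64 CPM. All 18 tumors lay above the spleen control, the highest of the 5, and HS27 came nearest to it. The log2FC of tumors against the 5 controls was 2.66 ± 0.44 (SE). In the RefSeq annotation *CDC25C* overlaps *FAM53C* and *SLBP2*, and the strand setting of the counting is not given in the sources used here, so reads of these neighbours may be mixed.

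*GTSE1* encodes a microtubule-associated protein that accumulates in G2 and M phase and restrains p53. Its level ran from 7.58 CPM in the HHS tumor HS46 through a median of 28.6 CPM to 71.9 CPM in HS37. The blood controls were at 1.32, 2.58 and 4.81 CPM, the lung control at 4.84 CPM and the spleen control at 6.28 CPM. No tumor overlapped a control, and HS46, the nearest, stood apart from the other tumors, the next lowest of which, HS14, had 14.9 CPM. The log2FC was 3.21 ± 0.47 (SE), the highest of the 9.

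*KIF20A*, or MKLP2, is a kinesin of the central spindle that is needed for cytokinesis. It had 48.6 CPM in HS33, the highest tumor, and 18.8 CPM at the median, while HS29 and HS27 were lowest with 3.73 and 3.88 CPM. The blood controls had 0.924, 2.71 and 3.47 CPM, the lung control 5.76 CPM and the spleen control 6.17 CPM. HS29 and HS27 thus lay below both tissue controls, and the other 16 tumors lay above every control. The log2FC was 2.80 ± 0.55 (SE). *KIF20A* overlaps *BRD8* and *CDC23* in RefSeq, so the counts of *KIF20A* and *CDC23*, both members, may share reads.

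*KIFC1*, or HSET, is a minus-end-directed kinesin that gathers spindle poles and extra centrosomes. Its tumor levels were 19.6 CPM in HS46, 71.4 CPM at the median and 180 CPM in the thoracic mass HS4. Blood had 6.05, 6.18 and 18.8 CPM, lung 17.7 CPM and spleen 15.3 CPM. Of the 18 tumors, 17 were at 42.8 CPM or more, far above the controls, and HS46 exceeded the highest blood control only narrowly. The log2FC was 2.85 ± 0.41 (SE).

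*CENPM* encodes a subunit of the inner kinetochore, the protein layer that joins centromeric chromatin to the spindle. It ranged from 1.85 CPM in HS46 to 12.0 CPM in HS34, with a median of 5.15 CPM. The controls had 0.682, 1.20 and 5.03 CPM in blood, 2.20 CPM in lung and 2.55 CPM in spleen. The groups overlapped, since 1 blood control lay close to the tumor median, and 10 of 18 tumors were above it. The log2FC was 1.53 ± 0.45 (SE).

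*CDC23*, or APC8, is a core subunit of the APC/C that is needed in every dividing cell, and *FBXO5*, or EMI1, is the inhibitor that keeps the complex off through S and G2 phase. *CDC23* was 24.5 CPM in HS14, 35.2 CPM at the median and 70.1 CPM in HS48. It was 24.1, 31.1 and 36.4 CPM in blood, 26.5 CPM in lung and 32.2 CPM in spleen. Tumors and controls overlapped over most of their range, 8 tumors lay above every control, and the log2FC was 0.52 ± 0.23 (SE). *FBXO5* was 6.10 CPM in HS27, 17.6 CPM at the median and 33.7 CPM in HS48. Its controls were at 2.65, 6.52 and 10.0 CPM in blood, 5.64 CPM in lung and 7.51 CPM in spleen. Of the 18 tumors, 15 had more *FBXO5* than any control, and the log2FC of 1.57 ± 0.35 (SE) was larger than that of the complex subunit.

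*CDC14B* encodes a phosphatase of the CDC14 family, which in yeast reverses CDK1 phosphorylation at mitotic exit and in mammals also acts in the DNA damage response. It was the only member lower in tumors. Its level was 0.524 CPM in HS27, 1.71 CPM at the median and 8.14 CPM in HS35, against 8.55, 9.35 and 10.8 CPM in blood, 14.2 CPM in lung and 6.03 CPM in spleen. In 15 of 18 tumors it was below the lowest control, and the 3 exceptions were the lung tumors HS35, HS47 and HS48. Tumors differed from one another by up to 15.5-fold, more than for any other member, and the log2FC was -1.81 ± 0.50 (SE).

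*MTFR2*, or DUFD1, belongs to a family that promotes mitochondrial fission, and it is the member without a direct part in mitotic control. HS46 had the lowest level, 12.9 CPM, the median was 36.5 CPM and HS37 had the highest, 85.4 CPM. The controls were at 1.46, 4.18 and 7.47 CPM in blood, 5.95 CPM in lung and 10.97 CPM in spleen. No tumor overlapped a control, and the log2FC was 2.88 ± 0.42 (SE).

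**Figure D1:**
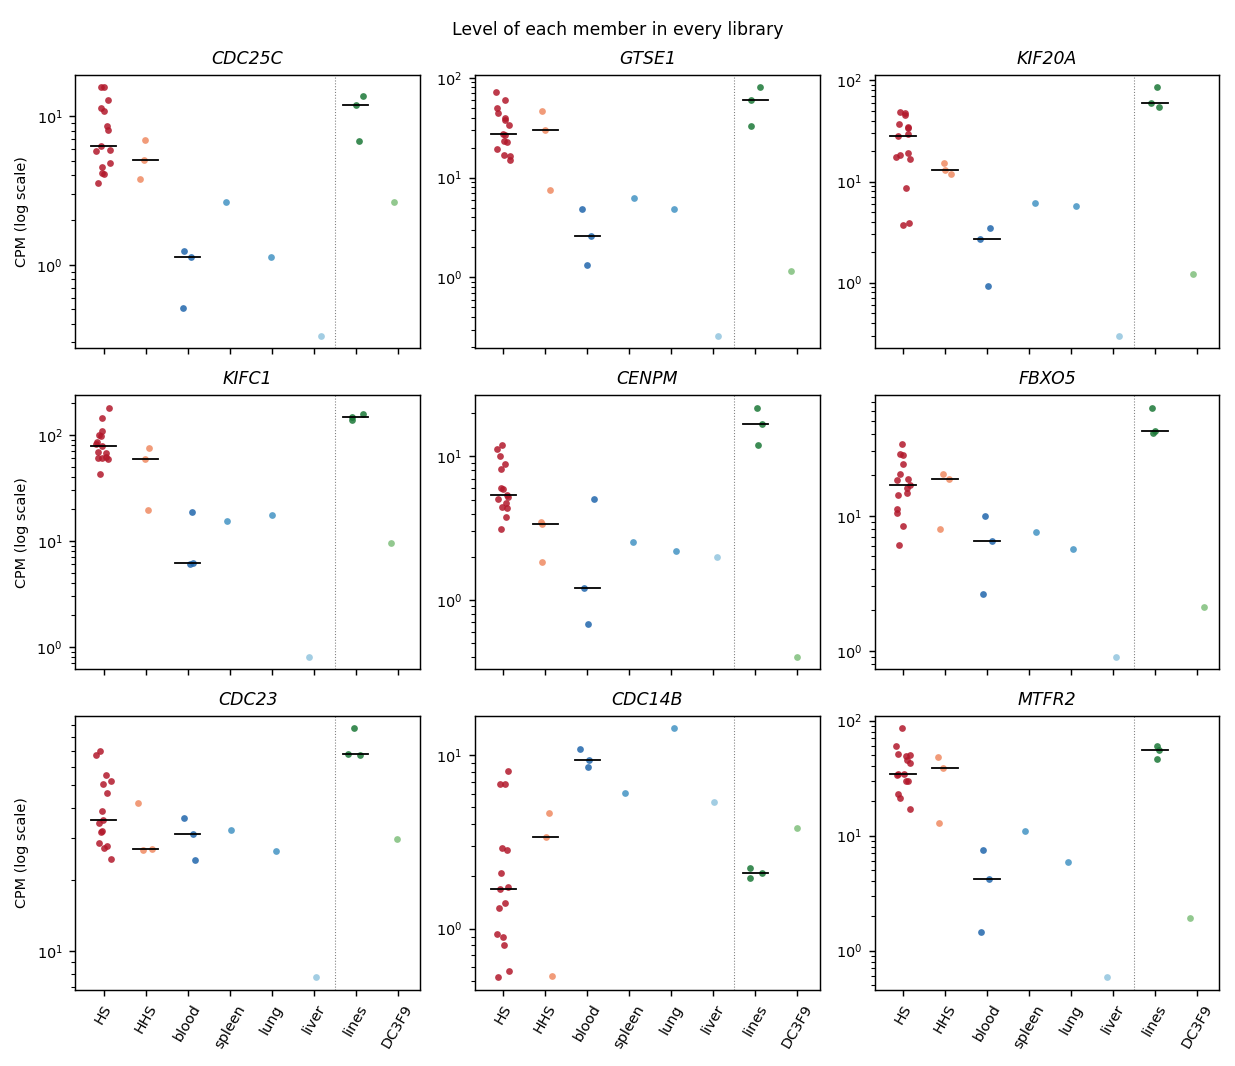
Level of each of the 9 genes in every library, in CPM on a log scale, with 1 panel per gene, points for libraries and a black line for the median of a group with more than 1 library; the dotted line parts the tumors and controls from the separately counted cell lines and DC3F9. In *CDC25C*, *GTSE1*, *KIFC1* and *MTFR2* all 18 tumors lie above the blood, spleen and lung controls, *CDC23* overlaps, and *CDC14B* runs the other way.

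At the study's cutoffs of 1.5 for the size of the log2FC and 0.0005 for the adjusted p (edgeR quasi-likelihood test, Benjamini-Hochberg over 19430 genes), 4 of the 9 were called higher in tumors, *CDC25C*, *GTSE1*, *KIFC1* and *MTFR2*, and 0 were called lower. Of all genes, 0.865% were called higher and 1.91% lower. The study's methods name DESeq2 and a Benjamini-Yekutieli correction, so only the cutoff values are the study's, not the test or the adjustment. The same 4 genes were above every one of the 5 controls in every tumor, as were 1.16% of all genes. This contrast was used to choose the 9. *KIF20A*, *CENPM* and *FBXO5* had a log2FC above 1.5, and *CDC14B* one below -1.5, without passing the cutoff on p.

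The log2FC varied with the controls used. Against blood alone the log2FC was 3.57 ± 0.61 (SE) for *GTSE1*, 3.37 ± 0.72 for *KIF20A* and 3.25 ± 0.54 for *MTFR2*. Against the spleen and lung controls alone it was 2.78 ± 0.68 for *GTSE1*, 2.21 ± 0.78 for *KIF20A* and 2.43 ± 0.58 for *MTFR2*. *CENPM* and *FBXO5* moved the other way, from 1.498 ± 0.58 to 1.56 ± 0.63 and from 1.52 ± 0.44 to 1.63 ± 0.51. The shift between the control sets was larger than either SE for *GTSE1*, *KIF20A* and *MTFR2*, and it was not tested. With the 2 tissue controls alone, edgeR called 0 of the 9. It called 222 of 21533 genes, 7 higher and 215 lower in tumors, and gave 5096 an unadjusted p under 0.05. *CDC14B* was still lower, by -1.72 ± 0.75 (SE). Of the tissue controls, spleen had the higher level of 7 members, and lung had the higher level of *KIFC1* and *CDC14B*.

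**Figure D2:**
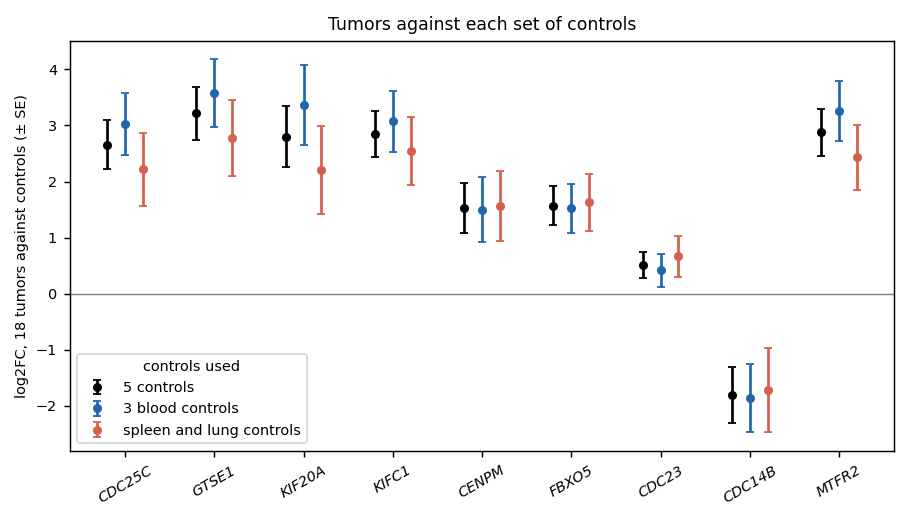
Difference between the 18 tumors and the controls in log2FC (vertical axis) for each of the 9 genes. Points are shown ± SE, computed from the log2FC and F statistic of edgeR. The controls are all 5 (black), the 3 blood controls (blue) or the spleen and lung controls (red). The direction is the same with each set, and for *GTSE1* the log2FC is 3.57 against blood and 2.78 against the tissues.

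The HS lines were set against DC3F9, to ask how cultured HS cells differ from normal cells of a related lineage. *KIF20A* was 85.9 CPM in BD, 59.3 CPM in OD and 54.3 CPM in PJ, against 1.23 CPM in DC3F9, that is 69.8, 48.1 and 44.1 times its level. *CENPM* was 21.9, 17.0 and 12.0 CPM in the same order, against 0.402 CPM in DC3F9 (33 reads, exact 95% interval 0.277 to 0.565 CPM, which covers counting error only). *GTSE1* was 60.5, 81.0 and 32.8 CPM against 1.17 CPM. These 3 had the largest differences, with a log2FC of 5.28 ± 0.65 (SE) for *KIF20A*, 5.17 ± 0.87 for *GTSE1* and 4.92 ± 0.87 for *CENPM*.

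*MTFR2* (55.6, 60.2 and 46.7 CPM against 1.93 CPM), *FBXO5* (42.5, 63.0 and 41.2 CPM against 2.11 CPM) and *KIFC1* (157, 149 and 137 CPM against 9.62 CPM) followed. Their log2FC was 4.34 ± 0.56, 4.07 ± 0.64 and 3.47 ± 0.44 (SE). *KIFC1* was nearly equal in the 3 lines, which differed by 1.15-fold, while *GTSE1* differed by 2.47-fold.

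*CDC25C*, *CDC23* and *CDC14B* had the smallest differences. *CDC25C* had 13.8 CPM in BD, 6.82 CPM in OD and 11.9 CPM in PJ against 2.63 CPM in DC3F9, a log2FC of 1.57 ± 0.78 (SE). The DC3F9 level was close to that of the spleen control and above that of blood, in libraries that were prepared and counted apart. *CDC23* had 87.0, 67.3 and 68.0 CPM against 29.7 CPM (log2FC 0.85 ± 0.41). *CDC14B* was again lower, with 1.96, 2.08 and 2.25 CPM against 3.79 CPM and a log2FC of -1.32 ± 0.69 (SE).

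All 3 lines were above DC3F9 in 8 of the 9 genes, beside 46.3% of all 18121 genes, and below it in 1, *CDC14B*, beside 19% of all genes. The test by edgeR called 0 of the 9 and 0% of all genes with the same limit on log2FC and an adjusted p under 0.05, while 2788 genes had an unadjusted p under 0.05. DESeq2 called 6 of the 9 and 1796 genes (9.91%), and nothing is read from this either. Scaled by library totals in place of TMM factors, the median log2FC of all genes moved from 0.23 to 0.69 and that of the 9 from 4.07 to 4.53, with no change of sign. With 1 normal library the spread of DC3F9 is unknown and was assumed to be that of the lines. The lines were also counted apart from the tumors and, by the paper though not by the labels, prepared with another library kit. Their levels are therefore set side by side without a test. *KIF20A* and *FBXO5* exceeded the highest tumor in all 3 lines. *CENPM* did so in BD and OD, while PJ, at 12.03 CPM, was level with the highest tumor, HS34, at 12.02 CPM. *GTSE1* and *CDC23* exceeded the highest tumor in 1 line, and *CDC25C*, *KIFC1* and *MTFR2* in none.

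Among the tumors, HHS was compared with HS, a contrast that the choice of the genes did not rest on. *CENPM* had 1.85, 3.39 and 3.50 CPM in the HHS tumors HS46, HS53 and HS41, and 3.14 CPM at the lowest, 5.396 CPM at the median and 12.0 CPM at the highest of 15 HS tumors. The 3 HHS tumors were thus at the low end of HS, with overlap. The log2FC of HHS against HS was -1.24 ± 0.45 (SE, edgeR adjusted p = 0.943). *KIF20A* was 12.0, 13.1 and 15.3 CPM in HHS, against a median of 28.5 CPM in HS, with HS tumors on both sides, and its log2FC was -0.97 ± 0.57 (SE, edgeR adjusted p = 0.943). Of the 9 genes, 8 had a negative log2FC (median -0.41, beside -0.12 for all genes, of which 43.1% were positive), and none passed the test, as 0% of 19853 genes did. With edgeR 797 genes had an unadjusted p under 0.05, 1 of them a member, and DESeq2 called 1 gene (0.00504%) and 0 members.

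The liver tumor HS46 was the lowest of all 18 tumors in *GTSE1*, *KIFC1*, *CENPM* and *MTFR2*. Without it the log2FC of HHS against HS was -0.99 ± 0.53 (SE) for *CENPM*, and it changed sign in 4 of the 9 genes, *GTSE1*, *FBXO5* and *MTFR2* (0.15, 0.08 and 0.05) and *CDC14B* (-0.07). The other HHS tumors were not low in *GTSE1*: HS53 had 29.7 CPM, beside the HS median of 27.6 CPM, and HS41 had 47.0 CPM, above 12 of the 15 HS tumors. HS46 was not low in *CDC23*, with 42.0 CPM, nor in *CDC14B*, with 3.35 CPM. Its library had 171712524 counted reads, among the deepest, and its sum of the T, B and NK cell markers was 96.2 CPM, the second highest of the tumors. Whether that sum had a part in its levels was not tested.

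None of the 9 passed between the 6 lung and 4 liver tumors. The log2FC of lung against liver was between -0.15 and 0.20 for 8 of the 9 genes, with an SE of 0.33 to 0.60, and the sign changed in 2 to 4 of the 9 genes when 1 liver tumor was left out. *CDC14B* was 0.524 CPM in HS27, 5.73 CPM at the median and 8.14 CPM in HS35 among lung tumors, against 0.801, 1.56 and 3.35 CPM for the lowest, median and highest liver tumor. Its log2FC was 1.22 ± 0.75 (SE, edgeR adjusted p = 0.987). The lung tumors fell apart into HS35, HS47, HS48 and HS53, at 4.66 CPM or more, and HS27 and HS52, under 1 CPM. *AGER*, the marker of alveolar epithelium, was 57.4 CPM in HS35 and 53.8 CPM in HS47 but 6.36 CPM in HS48 and 6.68 CPM in HS53, against 1982 CPM in the lung control, where *CDC14B* was 14.2 CPM. The part of normal lung in the *CDC14B* level was not tested. Of all 17671 genes 0% were called between lung and liver by edgeR, 907 had an unadjusted p under 0.05, and DESeq2 called 99 genes (0.56%) and 0 members.

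The 9 genes did not vary as 1 unit from tumor to tumor. For each of the 36 pairs, Spearman's rho and Pearson's r of log2 CPM (prior count 2) were computed over the 18 tumors with a two-sided permutation test of 100000 resamples and adjusted over the 36 pairs. In 10 pairs the adjusted p of rho was under 0.05, all of them positive. By Pearson's r 13 pairs passed, 9 of those 10 among them. Of the 10 pairs past by rho, 5 passed again with TMM scaling and 9 in the 15 HS tumors alone. Without HS51 9 did, and without the 2 tumors farthest from the median level 7 did. The 5 that passed in every setting were the 3 pairs of *CDC25C*, *FBXO5* and *MTFR2*, *CDC25C* with *KIF20A*, and *KIFC1* with *CENPM*. The median rho was 0.43 over the 21 pairs of the 7 genes other than *CDC23* and *CDC14B*, beside 0.05 over all pairs of 14402 genes. It was 0.29 over all 36 pairs of the 9, and the 0.43 became 0.21 without HS46 and HS27. In 9 of the 36 pairs rho was above 0.6, against 4.07% of all pairs of genes.

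The tightest group was *CDC25C*, *FBXO5* and *MTFR2*. *CDC25C* and *MTFR2* had a rho of 0.85 (permutation p = 4e-05, adjusted p = 0.00108) and an r of 0.79 (permutation p = 8e-05, adjusted p = 0.00132). Without HS37 and HS33, the tumors farthest from the median of *CDC25C*, r was 0.70. *CDC25C* and *FBXO5* had a rho of 0.84 (permutation p = 6e-05, adjusted p = 0.00108) and an r of 0.81 (permutation p = 4e-05, adjusted p = 0.00132), with an r of 0.79 without those tumors. Out of 14401 other genes, *MTFR2* ranked 3 and *FBXO5* ranked 4 in likeness to *CDC25C*. *FBXO5* and *MTFR2* had a rho of 0.80 (permutation p = 0.00018, adjusted p = 0.00216) and an r of 0.76 (permutation p = 0.0003, adjusted p = 0.0027), and r was 0.66 without HS27 and HS46. The entry phosphatase, the APC/C inhibitor and the fission regulator were therefore high and low in much the same tumors.

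*KIF20A* joined this group less closely. Its rho was 0.72 with *CDC25C* (permutation p = 0.00101, adjusted p = 0.00821), with an r of 0.69 (permutation p = 0.00148, adjusted p = 0.00796) and 0.64 without HS37 and HS33. With *MTFR2*, *CDC23* and *FBXO5* its rho was 0.66, 0.66 and 0.62 (adjusted permutation p = 0.0193, 0.0197 and 0.0274). Its r with them was 0.52, 0.60 and 0.68 (adjusted permutation p = 0.0679, 0.0293 and 0.00796), and 0.56, 0.64 and 0.55 without HS29 and HS27. These 3 no longer passed when log2 CPM was scaled by TMM factors (rho 0.43, 0.42 and 0.49), and the pairs of *CDC25C* with *CDC23* (rho 0.63, adjusted permutation p = 0.0263) and *GTSE1* (rho 0.59) did not either. *CDC25C* and *CDC23* had an r of 0.74 (adjusted permutation p = 0.00526), and 0.63 without HS37 and HS33. *KIF20A* and *CDC23* overlap in the annotation, and the part of shared reads in their rho was not tested.

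By rho, *KIFC1* and *CENPM* formed a pair of their own. Their rho was 0.70 (permutation p = 0.00114, adjusted p = 0.00821) and their r 0.79 (permutation p = 0.00011, adjusted p = 0.00132), and r was 0.64 without HS46 and HS4. With *CDC25C* *KIFC1* had a rho of 0.05 (adjusted permutation p = 0.92) and *CENPM* 0.14 (adjusted permutation p = 0.711), and with *FBXO5* they had 0.04 and 0.00 (adjusted permutation p = 0.92 and 0.994). The thoracic mass HS4 shows this split: its *KIFC1* was the highest of all and its *CENPM* 10.1 CPM, while its *CDC25C* was 4.07 CPM and its *FBXO5* 10.5 CPM, among the lower tumors. HS48 was the reverse, with the highest *FBXO5* and a *CENPM* of 3.14 CPM.

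**Figure D3:**
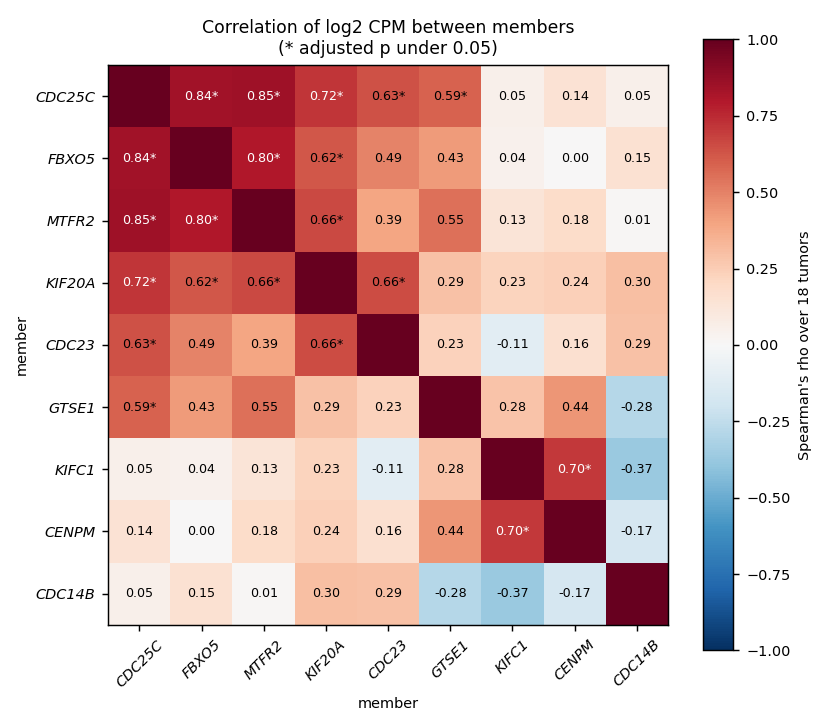
Spearman's rho of log2 CPM over the 18 tumors for each pair of the 9 genes, as colour and number, with a star where the adjusted permutation p is under 0.05. Each pair among *CDC25C*, *FBXO5*, *MTFR2* and *KIF20A* is starred, as is *KIFC1* with *CENPM* (0.70), *CDC23* is starred with *CDC25C* and *KIF20A* and not with *FBXO5* or *MTFR2*, and *CDC14B* has no starred pair.

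By rho *GTSE1* passed with *CDC25C* alone, at 0.59 (permutation p = 0.011, adjusted p = 0.0397). Its rho was 0.55 with *MTFR2* (adjusted permutation p = 0.067), 0.44 with *CENPM* (adjusted permutation p = 0.191) and 0.28 with *KIFC1* (adjusted permutation p = 0.44). By r it also passed with *MTFR2*, *CENPM* and *KIFC1* (0.68, 0.58 and 0.58, adjusted permutation p = 0.00796, 0.0332 and 0.0356). Without HS46 and HS37, the tumors farthest from the median of *GTSE1*, these r were 0.39, 0.31 and 0.12. Its r with *CDC25C* was 0.60 (permutation p = 0.0079, adjusted p = 0.0293) and fell to 0.40 without HS37 and HS33, so the relation rests in part on those tumors. *GTSE1* and *KIF20A* had a rho of 0.29 (adjusted permutation p = 0.44). The ratio of *GTSE1* to *KIF20A* in CPM, compared between tumors only, was 1.34 at the median and 0.403 in HS48, the lowest. It was 13.3 in the spleen tumor HS29, which had 49.8 CPM of *GTSE1* and 3.73 CPM of *KIF20A*, and 4.30 in the next tumor, HS27. HS29 had the fewest counted reads of the tumors, 99701394, and 372 reads on *KIF20A*, so counting error is small beside this gap.

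*CDC14B* had no pair that passed. Its rho ran from -0.37 with *KIFC1* (adjusted permutation p = 0.297) to 0.30 with *KIF20A* (adjusted permutation p = 0.44). The 2 tumors with the highest level of the other genes, HS37 and HS33, had 0.566 and 0.801 CPM of *CDC14B*, and HS27, near the bottom, had 0.524 CPM. A low *CDC14B* was thus found at both ends of the other genes, but not in every tumor there. HS46, the lowest in the other genes, had 3.35 CPM, and HS35, next after HS33, had the highest *CDC14B*, 8.14 CPM. With TMM scaling its rho ran from -0.49 with *KIFC1* (adjusted permutation p = 0.156) to 0.19 with *KIF20A* (adjusted permutation p = 0.754).

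**Figure D4:**
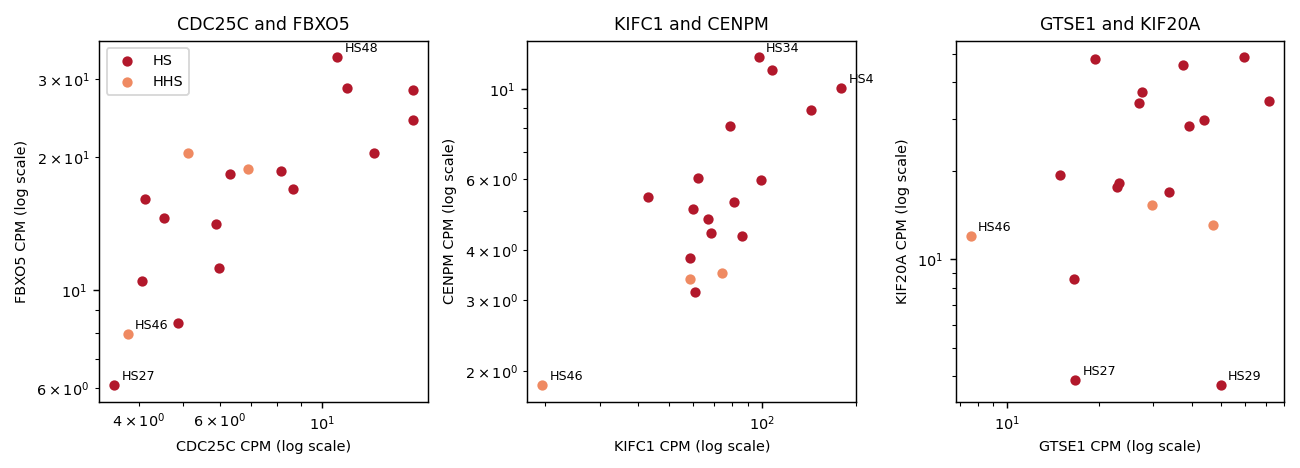
Level in CPM (log scales) of *FBXO5* against *CDC25C*, of *CENPM* against *KIFC1* and of *KIF20A* against *GTSE1* in the 18 tumors, 1 point per tumor, dark red for HS and orange for HHS. The first 2 pairs rise together (rho 0.84 and 0.70), while in the third HS29 has 49.8 CPM of *GTSE1* and 3.73 CPM of *KIF20A*.

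Averaging the 7 genes other than *CDC23* and *CDC14B*, each centred on its mean log2 CPM over 18 tumors, gives 1 level per tumor. It was 0.99 in HS37, from the thorax, and 0.84 in HS33, from the liver, on the log2 scale. It was -1.33 in HS46, from the liver, and -0.99 in HS27, from the lung. Liver tumors thus took both ends of the order, and the 3 HHS tumors ranked 10, 12 and 18. In HS37 all 7 genes were above their mean, and in HS46 and HS27 all 7 were below. In between, tumors mixed high and low members: HS48 had 1.32 for *KIF20A* and -0.76 for *CENPM*, and HS4 had 1.30 for *KIFC1* and -0.75 for *CDC25C*. HS27 and HS29, at ranks 17 and 16, had TMM factors of 0.819 and 0.821, and HS14, at rank 15, had the lowest, 0.777. With TMM scaling HS29 moved to rank 9 and HS14 to rank 10, and the order at both ends stayed (HS37 and HS33 first, HS27 and HS46 last). The order in the middle therefore depends on the scaling. The histiocyte sum was 1625 CPM in HS37 and 1437 CPM in HS33, 2933 CPM in HS27 and 2828 CPM in HS46, and 10028 CPM in HS14, and its part in the order was not tested.

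**Figure D5:**
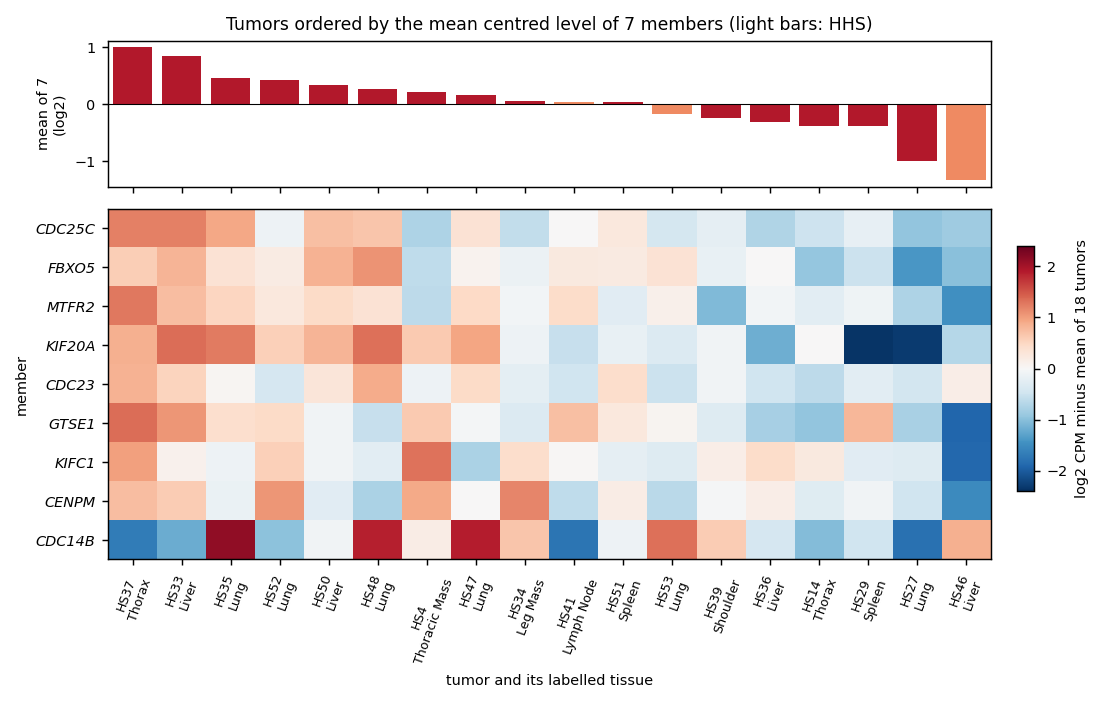
The 18 tumors ordered by the mean of 7 genes (bars, log2 CPM centred on the mean over tumors, light bars for HHS) above each gene's own centred log2 CPM (colour) in the same order, with the labelled tissue under each tumor. HS37 is above the mean and HS27 and HS46 below it throughout these 7, and HS33 is high except in *KIFC1*, at 0.11. *KIF20A* is lowest in HS29 and HS27, and *CDC14B* follows another order.

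Only 807 of the 14402 genes carry a name in the tables used here, and only these could be named as most like the 9. Their Ensembl identifiers all lie in 1 low-numbered block, which also holds the 9. The named genes are therefore not a sample of the whole genome. The highest rho with the level of the 7 genes was 0.84 for *RANGAP1*, which activates the GTPase Ran and sits at kinetochores in mitosis and ranked 14 among all genes, and 0.81 for *LMNB1*, lamin B1 of the nuclear envelope. *DNAL4* (0.75), the translation factor subunit *EIF3L* (0.75), the mitochondrial serine hydroxymethyltransferase *SHMT2* (0.73), the mitochondrial thioredoxin *TXN2* (0.69), the mitochondrial chaperone *HSPA9* (0.68) and the methionine tRNA ligase *MARS* (0.65) came next. The lowest were lysozyme, *LYZ* (-0.66), *DEF6* (-0.58), *PTPRK* (-0.57) and *NTRK2* (-0.54). These values are descriptions, each over 18 tumors that share 1 flow cell. By RefSeq, *LMNB1* and *HSPA9* lie on the chromosome of *CDC25C* and *KIF20A*, which are among the 7 averaged. Shared chromosomes were not counted for the rest of this list, and likeness by function was not tested. For *CDC23* the 3 nearest named genes were the phosphatase subunit *PPP2CA* (0.83), *FAM53C* (0.82) and *ALDH7A1* (0.81), and for *CDC14B* they were *R3HDM2* (0.91), the ribonucleotide reductase subunit *RRM2B* (0.82) and *CCDC171* (0.82). Chosen after their values were seen, the nearest to *KIFC1* was *HMGA1* (0.79) and to *CENPM* *TTLL12* (0.82).

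Many of the nearest named genes lay on the same chromosome as the member, by the RefSeq table of dog genes (assembly UU_Cfam_GSD_1.0, not the build of the counts, so no position is given). This was looked at after the values were seen, among the named genes with a chromosome there (792 beside each member). Of the 20 named genes nearest to *CDC23*, 16 were on its chromosome, as were 14.4% of the named genes. The count was 14 of 20 for *FBXO5* and 13 of 20 for *CDC14B* (both beside 25.9%), 12 for *CENPM* and 10 for *GTSE1* (both beside 27.3%), 11 for *KIF20A* and 6 for *CDC25C* (both beside 14.4%) and 9 for *KIFC1* (beside 15.5%). For *MTFR2* it was 5 of 20, beside 25.9%. The median rho of *CDC23* was 0.51 with the named genes of its chromosome and 0.12 with the others, and that of *CDC14B* was 0.43 and 0.09. Among the 9 themselves, *CDC25C*, *KIF20A* and *CDC23* share a chromosome, as do *FBXO5*, *MTFR2* and *CDC14B*, and *GTSE1* and *CENPM*. The 7 pairs within a chromosome had a median rho of 0.63 (0.01 to 0.80), and the 29 pairs across chromosomes one of 0.24 (-0.37 to 0.85), which includes the pair of *CDC25C* and *MTFR2*. What lies behind the shared chromosomes was not tested.

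Other genes of the cell cycle were followed from lists of named genes. The lists hold only genes named in the part of the study's supplement that could be read. *FOXM1*, *AURKB*, *PLK1* and *CDK1*, which the paper reports as higher in these tumors, are not among them. Of 15 further mitosis genes, 0 passed the cutoffs in tumors against controls by edgeR. An unadjusted p under 0.05 was found for 4 of the 15, 9 of the 14 G1/S genes and 3 of the 7 centrosome genes named next, beside 39.7% of all genes. The mitosis median log2FC was 0.13, beside -0.01 for all genes. The highest were the APC/C inhibitor *FBXO43* (log2FC 2.17, adjusted p = 0.0609), tubulin *TUBB* (1.32, adjusted p = 0.000746) and dynactin subunit *DCTN2* (0.54, adjusted p = 0.0624), and the lowest were *TUBGCP6* (-1.05, adjusted p = 0.0491), the kinase *LATS1* (-0.44, adjusted p = 0.257) and *PPP2CA* (-0.31, adjusted p = 0.362), all by edgeR. Of 14 genes of G1/S and DNA replication, 1 rose, the helicase *RECQL4* (log2FC 2.73, edgeR adjusted p = 0.000291), 0 fell, and the median was 0.81. Of 7 centriole and centrosome genes, 1 fell, *CEP120* (log2FC -1.52, edgeR adjusted p = 0.000283), 0 rose, and the median was -0.08. DESeq2 called 0 of the 15 mitosis genes, 4 of the 14 higher and 1 of the 7 lower, beside 4.72% of all genes called higher and 4.14% lower. The median of the 9 genes was 2.66, but they were chosen on this contrast, and several genes of the mitosis list also act outside mitosis.

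In the cell lines against DC3F9, none of these 36 genes passed by edgeR, while 14 had an unadjusted p under 0.05 (15.4% of all genes did) and DESeq2 called 10, all higher in the lines. The median log2FC was 0.99 for the mitosis list (12 of 15 positive), 1.76 for the G1/S list (11 of 14) and 1.37 for the centrosome list (6 of 7), beside 0.23 for all genes, of which 57.2% were positive. *LMNB1* had 268, 194 and 181 CPM in BD, OD and PJ and 9.28 CPM in DC3F9, a log2FC of 4.06. *FBXO43* had 0 reads in DC3F9 and 10, 106 and 7 reads in the lines. None of the 36 passed in HHS against HS or in lung against liver tumors by edgeR or DESeq2, and 0 had an unadjusted p under 0.05 in either.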

How the data were processed

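RNA was measured in 18 tumors, 6 controls and 4 cell libraries, grouped by their labels. The authors' pipeline of cutadapt 3.7, STAR 2.7.10a on the CanFam3.1 build and HTSeq 2.0.0 gave the deposited raw counts per gene, with tumors and cell lines in separate tables. The labels name a total RNA kit for all libraries and the paper an mRNA kit for the cell lines. Strand settings are not given in the sources used here.

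From these counts edgeR 4.0.16, under R 4.3.3, gave log2FC and adjusted p (TMM factors, filterByExpr, quasi-likelihood test, default prior count, Benjamini-Hochberg over all genes). The SE was computed as the size of the log2FC divided by the square root of the F statistic of that test. Cutoffs were 1.5 for log2FC and 0.0005 (tumors) or 0.05 (others) for adjusted p. A prior count of 2 entered only log2 CPM. DESeq2 1.42.0 was an alternative. limma 3.58.1 was loaded by edgeR. Figures were drawn with matplotlib 3.10.9 and correlations computed with scipy 1.17.1 and numpy 2.4.6 from tables read by pandas 2.3.3 (Python 3.11.15). CPM used library totals. The smallest level that 3 counts allow was 0.0166 to 0.0366 CPM, for counting error only. The scripts were tested on simulated data.

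The members and gene lists were chosen with earlier results of these data known. Named besides them are the 8 genes most and 4 least like the mean of 7 members, the 3 most like *CDC23* and *CDC14B*, and list genes past the cutoffs or with the 3 highest and 3 lowest log2FC of the mitosis list. The chromosome counts and the genes like *KIFC1* and *CENPM* were added after values were seen. Names came from the readable part of the study's supplementary tables, and 9 of 9 members matched RefSeq by symbol. Nothing says that samples of a group came from more than 1 preparation each, so p-values measure the spread between these dogs' samples. Alternatives were other scalings, no filter, other control and tumor sets and leaving out single libraries. The authors' own fold changes were not used.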

Additional observations from a re-analysis of the deposited data

Results flagged for a closer look

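In 27 groups of 4 to 6 samples (each of the 9 genes in the lung tumors, the liver tumors and the 5 controls), 1 sample stood apart from the rest of its group by Dixon's test on log2 CPM. It was *MTFR2* in the lung tumor HS27, the lowest of 6 with 21.4 CPM, against 38.8 CPM in the next, and its gap was 0.683 of the group's range. Chance flags about 1 in 20 groups, and 1 of 27 was flagged here.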

How the results depend on the processing

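Under the alternatives run, 3 counts moved past 1.5 times their value. Against the spleen and lung controls alone 0 of the 9 genes were called in tumors, where all 5 controls gave 4, with 2 controls in place of 5. Of all genes, 7 of 21533 and 168 of 19430 were called higher in these 2 settings. Leaving out 1 control gave 3 to 4 of the 9, beside 50 of 19934 to 158 of 19877 genes called higher. The remaining settings gave 3 to 5, beside 111 of 19430 genes (library totals) to 917 of 19430 (DESeq2, 4.72%) called higher. In the cell lines DESeq2 called 6 where edgeR called 0, and leaving out 1 line gave 0 each time. With TMM scaling 5 of the 36 pairs passed, where library totals gave 10; the cause was not tested. The median rho of 0.43 was 0.31 with TMM scaling, 0.33 in the 15 HS tumors, 0.42 without HS51 and 0.21 without HS46 and HS27. No member was called in HHS against HS or in lung against liver tumors under any setting. Signs turned for *CDC14B* in HHS against HS (main log2FC 0.09, -0.35 to 0.57 with 1 HHS tumor left out, negative without HS46 or HS53) and for *CDC25C* in lung against liver (-0.15, and -0.39 to 0.19 with 1 liver tumor left out, positive without HS33), all within their errors. The members had at least 33 reads in any library, the fewest being those of *CENPM* in DC3F9. No paired analysis was possible because the groups compared share no replicate numbers.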
